A study of Mus musculus with 12 samples.

Results

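The 10 genes described here make up the angiopoietin and vascular endothelial growth factor (VEGF) system together with an endothelial co-receptor and a junction protein, namely Angpt1, Angpt2, Tek, Tie1, Vegfa, Vegfc, Flt1, Kdr, Eng and Cdh5. They were taken as the probe sets whose single gene symbol was one of these names, and each gene had exactly 1 such probe set. They are 10 of the 19938 genes that the array measured with a single-symbol probe set. The values were measured in mouse uterine cells of strain CD-1 on day 4 of pseudopregnancy, in 4 groups of 3 arrays each. The groups were the epithelial layer under E2 (estradiol, an estrogen), the epithelial layer under vehicle, the stromal layer under E2 and the stromal layer under vehicle. Both layers came from a co-culture of enzymatically separated primary cells, with stromal cells on cover slips and epithelial sheets on inserts coated with matrigel. All cultures, the vehicle ones included, spent a night in medium without phenol red and with 1% charcoal-stripped serum, and were then held for 2 days with 10 nM E2 or with 0.01% ethanol as vehicle. RNA was extracted from each layer on its own, so every value is a bulk value of 1 layer. No label states that replicate arrays stem from different animals or cultures, so a p-value here covers array-to-array spread, which may be technical.

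Angiopoietins and VEGFs are secreted proteins that act on receptor tyrosine kinases of the vessel wall. Angiopoietin 1, usually made by the cells around a vessel, activates the receptor Tek and keeps vessels quiet, while angiopoietin 2 can oppose it and loosens vessels, and Tie1 is a co-receptor of Tek without a well-established ligand of its own. VEGF-A drives vessel growth and leakiness mainly through Kdr, with Flt1 as a tight-binding receptor that often acts as a trap, and VEGF-C acts on lymphatic vessels and also binds Kdr. Endoglin (Eng) is a co-receptor of the transforming growth factor family, and VE-cadherin (Cdh5) joins endothelial cells to each other. In the uterus, vessels grow and become leaky around the time of implantation, and ovarian steroids are known to act on several of these genes.

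Values are log2 signals normalized with RMA, so a difference of 1 is a 2-fold change. The test was limma's moderated test, and a gene passed with a Benjamini-Hochberg adjusted p under 0.05 over all 23410 probe sets with a symbol. Each array's median over these probe sets lay between 7.38 and 7.43. No level is compared between genes, because different probe sets do not report on 1 scale. Where a count at an unadjusted p under 0.05 is given, the share of all probe sets at that cut was not computed. Such a count is therefore no result about the listed genes. Whether a low signal lies above background was not tested. In bulk layers like these, fewer cells of a type and less RNA per cell cannot be told apart.

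The promoters are shown of the 3 members that passed the test between the layers under both treatments. Kdr was the member higher in the epithelial layer, and Flt1 and Eng were higher in the stromal layer under both treatments. The sequences are RefSeq's for build GRCm38.p6 and run 5′ to 3′ on the gene's strand, from 250 bases before the gene start to 50 bases after it. Capitals mark the motifs found.
Kdr, minus strand of chr5:75978406-75978705: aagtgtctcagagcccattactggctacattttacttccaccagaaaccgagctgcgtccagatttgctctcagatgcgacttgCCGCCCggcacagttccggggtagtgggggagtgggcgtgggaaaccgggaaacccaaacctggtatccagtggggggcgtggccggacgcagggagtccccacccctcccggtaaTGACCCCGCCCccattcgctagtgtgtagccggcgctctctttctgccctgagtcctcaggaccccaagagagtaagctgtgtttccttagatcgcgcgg
Flt1, minus strand of chr5:147725962-147726261: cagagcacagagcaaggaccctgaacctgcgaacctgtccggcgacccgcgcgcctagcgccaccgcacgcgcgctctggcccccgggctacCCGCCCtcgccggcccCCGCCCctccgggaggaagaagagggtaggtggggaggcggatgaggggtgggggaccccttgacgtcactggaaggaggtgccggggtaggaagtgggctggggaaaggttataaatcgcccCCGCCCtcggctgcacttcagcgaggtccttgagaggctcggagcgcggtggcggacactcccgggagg
Eng, plus strand of chr2:32646345-32646644: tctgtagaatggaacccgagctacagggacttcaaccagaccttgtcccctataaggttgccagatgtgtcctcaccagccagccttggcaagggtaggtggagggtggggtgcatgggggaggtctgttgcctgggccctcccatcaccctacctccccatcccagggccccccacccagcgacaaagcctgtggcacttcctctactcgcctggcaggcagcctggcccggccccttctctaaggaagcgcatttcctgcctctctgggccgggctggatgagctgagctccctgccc

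The motifs searched on both strands were GGTCA alone (the half-site of estrogen and other nuclear receptors), GGTCA followed after 3 bases by TGACC (the full estrogen response element), ACGTG (the hypoxia motif core), TGANTCA (AP-1) and GGGCGG (the Sp1 box). The Kdr promoter held 1 GGTCA, read on the opposite strand, and 2 GGGCGG boxes, also on the opposite strand. The GGTCA and the nearer GGGCGG stand next to each other and do not overlap. The Flt1 promoter held 3 GGGCGG boxes on the opposite strand, and the Eng promoter held no searched motif in this window. Of 32851 mouse promoters of the same length, 40.5% held GGTCA, 0.07% the full element, 19.6% ACGTG, 7.81% TGANTCA and 35.7% GGGCGG. These are matches of letters and say nothing about binding. Promoter entries matched 7 of the 10 genes, and Angpt1, Angpt2 and Cdh5 were not matched.

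**Figure D1:**
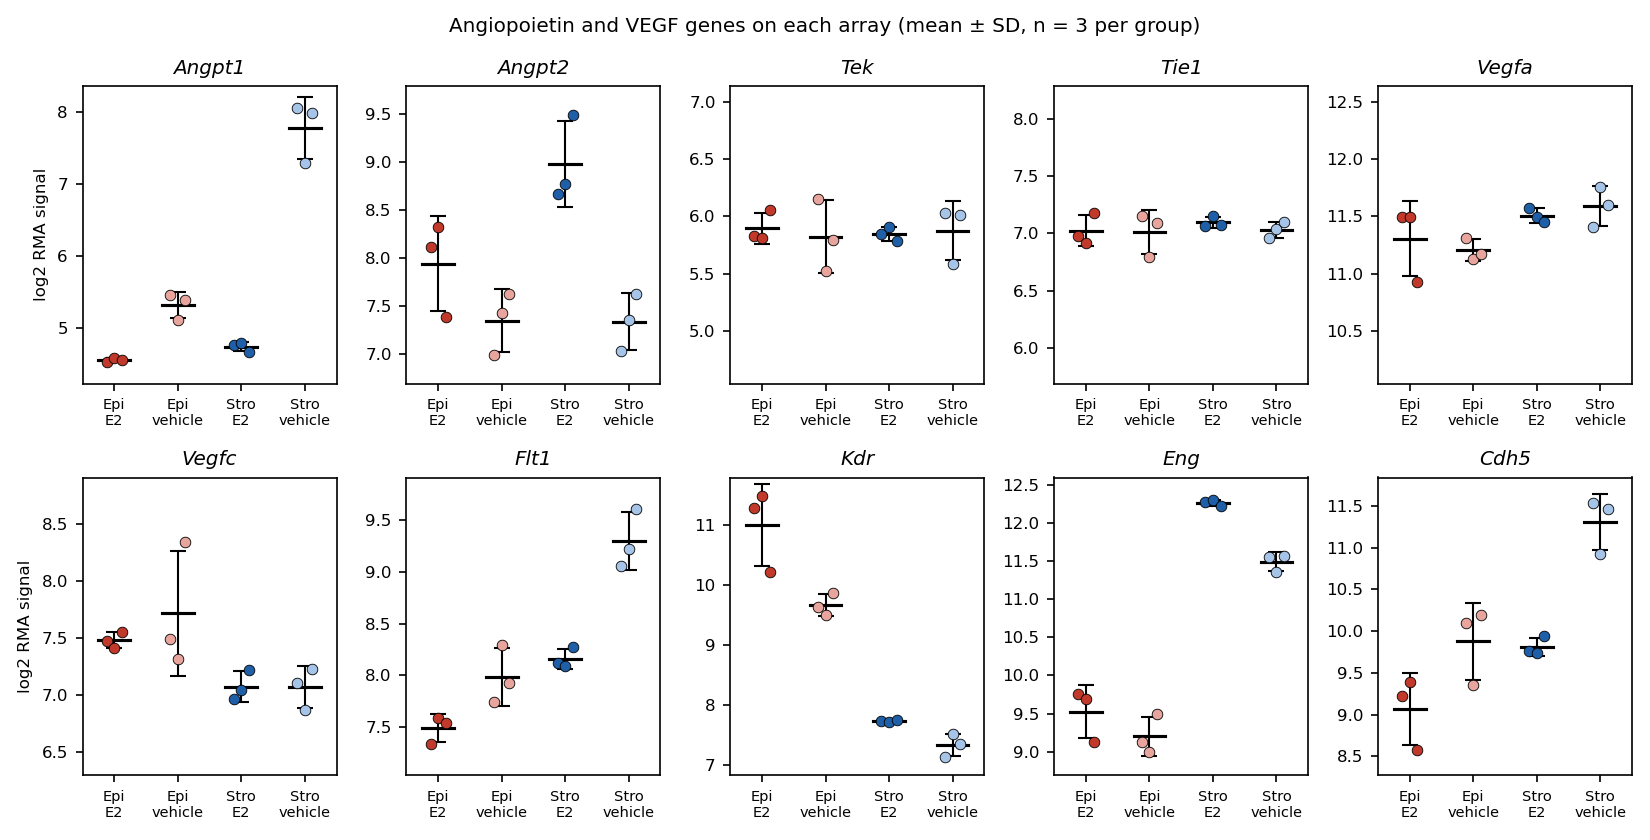
Log2 signal of the 10 genes on each of the 12 arrays, 1 panel per gene, with the 4 groups along the horizontal axis (epithelial E2, epithelial vehicle, stromal E2, stromal vehicle). Points are arrays and bars are group means with their SD (n = 3). Angpt1 stands at 7.28 to 8.06 in the stromal vehicle group alone, and Kdr is higher in both epithelial groups than in both stromal groups.

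Under E2, 5 of the 10 genes passed the test in the stromal layer, where 3.5% of all probe sets passed. Angpt2 and Eng rose, as did 1.52% of all probe sets, and Angpt1, Flt1 and Cdh5 fell, as did 1.98%. In the epithelial layer 2 of the 10 genes passed, against 2.9% of all probe sets. Kdr rose there, as did 1.77% of all probe sets, and Angpt1 fell, as did 1.12%. The median difference of the 10 genes was 0.04 in the epithelial layer and -0.01 in the stromal layer, against 0.03 for all probe sets in either layer. The groups of arrays did not overlap for 3 genes in the epithelial layer, where that held for 15% of all probe sets, and for 6 genes in the stromal layer, where it held for 30.5%. The 2 layers have their own vehicle arrays, so the differences themselves share no array. The variance used in each test was fitted on the arrays of both layers, so the tests of the 2 layers are not independent. The 10 genes and the lists below were chosen with earlier results of these data known. A share of all probe sets beside a count therefore gives scale and tests no set.

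Angpt1, the agonist ligand of Tek, showed the greatest E2 difference among the 10 genes. In the stromal layer it read 4.76, 4.79 and 4.66 under E2, against 8.06, 7.28 and 7.98 under vehicle. In the epithelial layer it read 4.52, 4.57 and 4.55 under E2, against 5.45, 5.11 and 5.39 under vehicle. Every E2 array lay below every vehicle array in both layers. The stromal difference was -3.04 ± 0.17 (standard error, SE), an 8.21-fold lower signal (95% interval -3.42 to -2.66, adjusted p = 9.65e-06). The epithelial difference was -0.76 ± 0.17, a 1.70-fold lower signal (interval -1.15 to -0.38, adjusted p = 0.0406). Without any 1 of 9 of the 12 arrays the epithelial call was lost, with adjusted p values of 0.0522 to 0.142; it held without epithelial vehicle replicate 2 and without stromal vehicle replicate 1 or 2. Under E2 both layers stood at 4.5 to 4.8, below the array medians.

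Angpt1 was also the single member whose E2 effect differed between the layers by the test of that difference, which 0.91% of all probe sets passed. The epithelial effect minus the stromal effect was 2.27 ± 0.25 (adjusted p = 0.00333), and the call held without each of the 12 arrays. Under vehicle the epithelial layer had 5.31 ± 0.18 and the stromal layer 7.78 ± 0.43 (SD, n = 3), a difference of -2.46 ± 0.17 (adjusted p = 7.22e-06). Under E2 the epithelial layer had 4.55 ± 0.03 and the stromal layer 4.74 ± 0.06. That difference of -0.19 ± 0.17 missed the threshold (interval -0.57 to 0.20, adjusted p = 0.525), although the arrays of the 2 layers did not overlap. From high to low, the order of the groups was stromal vehicle, epithelial vehicle, stromal E2 and epithelial E2, and no neighbours overlapped. The epithelial vehicle arrays, at 5.11 to 5.45, also lay below the array medians. Whether a floor of the signal limited the epithelial fall was not tested.

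Angpt2, the ligand that can oppose Angpt1 at Tek, read 8.66, 8.78 and 9.49 in the stromal layer under E2, against 7.03, 7.35 and 7.63 under vehicle. Its epithelial values were 8.11, 8.32 and 7.39 under E2, against 6.99, 7.42 and 7.63 under vehicle. The stromal groups were apart, while the epithelial groups overlapped through E2 replicate 3. The stromal difference was 1.64 ± 0.28, a 3.12-fold higher signal (interval 1.02 to 2.26, adjusted p = 0.00784). The epithelial difference of 0.59 ± 0.28 did not pass (interval -0.03 to 1.22, adjusted p = 0.335). The 2 effects were not shown to differ, since the epithelial minus the stromal effect was -1.05 ± 0.40 (adjusted p = 0.342). In the stromal layer under E2 the 2 angiopoietins thus moved in opposite directions, each by its own test.

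The receptor genes Tek and Tie1 gave no call in any of the 5 comparisons. Tek read 5.83, 5.81 and 6.05 in the epithelial layer under E2, against 6.15, 5.52 and 5.79 under vehicle, and 5.84, 5.91 and 5.78 in the stromal layer under E2, against 6.03, 5.58 and 6.02 under vehicle. All its 12 values lay below the array medians and the groups overlapped. Its E2 difference was 0.07 ± 0.16 in the epithelial layer (interval -0.28 to 0.43) and -0.03 ± 0.16 in the stromal layer (interval -0.39 to 0.33). Tie1 averaged 7.02 ± 0.14 in the epithelial layer under E2 and 7.01 ± 0.19 under vehicle, and 7.10 ± 0.05 in the stromal layer under E2 and 7.03 ± 0.07 under vehicle. Its 12 arrays spanned 6.80 to 7.18 with all groups overlapping. Its E2 difference had an interval of -0.22 to 0.25 in the epithelial layer and -0.17 to 0.30 in the stromal layer.

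Vegfa, the main vessel growth factor of the family, had bright signals in all 4 groups and no E2 call. It read 11.50, 11.49 and 10.92 in the epithelial layer under E2, against 11.31, 11.13 and 11.18 under vehicle, and 11.57, 11.50 and 11.45 in the stromal layer under E2, against 11.41, 11.75 and 11.60 under vehicle. The groups overlapped in both layers, and epithelial E2 replicate 3 was the lowest of the 12 arrays. The E2 difference was 0.10 ± 0.15 in the epithelial layer (interval -0.23 to 0.43, adjusted p = 0.831) and -0.08 ± 0.15 in the stromal layer (interval -0.41 to 0.25, adjusted p = 0.938).

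Vegfc, the lymphatic growth factor, had no E2 call either, with differences of -0.23 ± 0.21 in the epithelial layer (adjusted p = 0.702) and 0.01 ± 0.21 in the stromal layer (adjusted p = 0.998). It read 7.47, 7.42 and 7.55 in the epithelial layer under E2, against 7.49, 7.32 and 8.34 under vehicle. In the stromal layer it read 6.96, 7.04 and 7.22 under E2, against 7.11, 6.87 and 7.23 under vehicle. The epithelial arrays all lay above the stromal arrays. The epithelial minus stromal difference under vehicle was 0.64 ± 0.21 (adjusted p = 0.0534) and passed with the replicate number as a block within treatment (adjusted p = 0.0217). Without epithelial vehicle replicate 3, the brightest array, it was 0.33. Under E2 it was 0.41 ± 0.21 (adjusted p = 0.25).

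Kdr, the main signalling receptor of VEGF-A, read 11.29, 11.49 and 10.23 in the epithelial layer under E2, against 9.65, 9.51 and 9.87 under vehicle. Stromal values were 7.73, 7.72 and 7.76 under E2, against 7.14, 7.52 and 7.36 under vehicle. The 4 groups did not overlap, and their order from high to low was epithelial E2, epithelial vehicle, stromal E2 and stromal vehicle. The epithelial E2 difference was 1.33 ± 0.26, a 2.51-fold higher signal (adjusted p = 0.0206). Without epithelial E2 replicate 3 it was 1.72, and without epithelial E2 replicate 1 or 2 or epithelial vehicle replicate 1 or 2 it no longer passed (adjusted p = 0.103, 0.089, 0.0646 and 0.0503). The stromal difference was 0.40 ± 0.26 and did not pass (adjusted p = 0.675). The difference of the 2 effects was 0.93 ± 0.37 (adjusted p = 0.362), and without epithelial E2 replicate 3 it was 1.32 and passed (adjusted p = 0.00537).

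Flt1, the tight-binding VEGF receptor, read 8.12, 8.09 and 8.27 in the stromal layer under E2, against 9.06, 9.22 and 9.61 under vehicle. Its epithelial values were 7.34, 7.59 and 7.55 under E2, against 7.74, 8.29 and 7.93 under vehicle. Every E2 array lay below every vehicle array in both layers. The stromal difference was -1.14 ± 0.16, a 2.20-fold lower signal (adjusted p = 0.00236). The epithelial difference of -0.50 ± 0.16 did not pass (adjusted p = 0.141), and the effects were not shown to differ (0.64 ± 0.23, adjusted p = 0.297). With 1 probe set for the gene, the membrane-bound and the soluble form of Flt1 cannot be told apart.

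Eng, the co-receptor, read 12.27, 12.29 and 12.22 in the stromal layer under E2, against 11.56, 11.35 and 11.57 under vehicle. In the epithelial layer it read 9.76, 9.69 and 9.13 under E2, against 9.12, 9.00 and 9.49 under vehicle. The stromal groups were apart and the epithelial groups overlapped. The stromal difference was 0.77 ± 0.17, a 1.71-fold higher signal (adjusted p = 0.0274), and it lost the call without any 1 of the 6 stromal arrays (adjusted p of 0.0764 to 0.108). The epithelial difference was 0.32 ± 0.17 (adjusted p = 0.386), and the difference of the effects was -0.45 ± 0.24 (adjusted p = 0.587).

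Cdh5, the adhesion molecule of endothelial junctions, read 9.77, 9.74 and 9.94 in the stromal layer under E2, against 11.54, 10.93 and 11.46 under vehicle. The epithelial values were 9.23, 9.39 and 8.57 under E2, against 10.09, 9.35 and 10.19 under vehicle. The stromal groups were apart, while vehicle replicate 2 lay inside the E2 range in the epithelial layer. The stromal difference was -1.50 ± 0.26, a 2.82-fold lower signal (adjusted p = 0.00771). The epithelial difference was -0.81 ± 0.26 (adjusted p = 0.128), and the effects were not shown to differ (0.68 ± 0.36, adjusted p = 0.592).

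**Figure D2:**
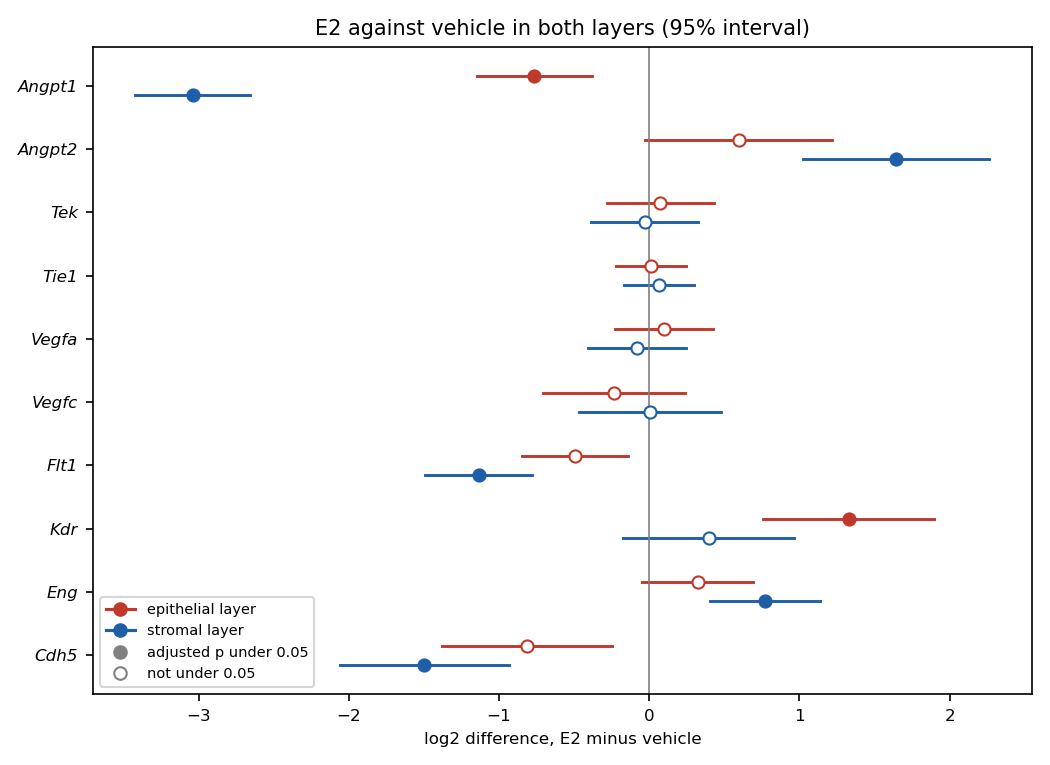
Difference in log2 signal, E2 minus vehicle, of the 10 genes in the epithelial layer and in the stromal layer, with 95% intervals from the fit on all 12 arrays. Filled points passed an adjusted p of 0.05 and open points did not. Kdr (1.33) and Angpt1 (-0.76) passed in the epithelial layer, and Angpt2, Eng, Flt1, Cdh5 and Angpt1 (-3.04) in the stromal layer.

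**Figure D3:**
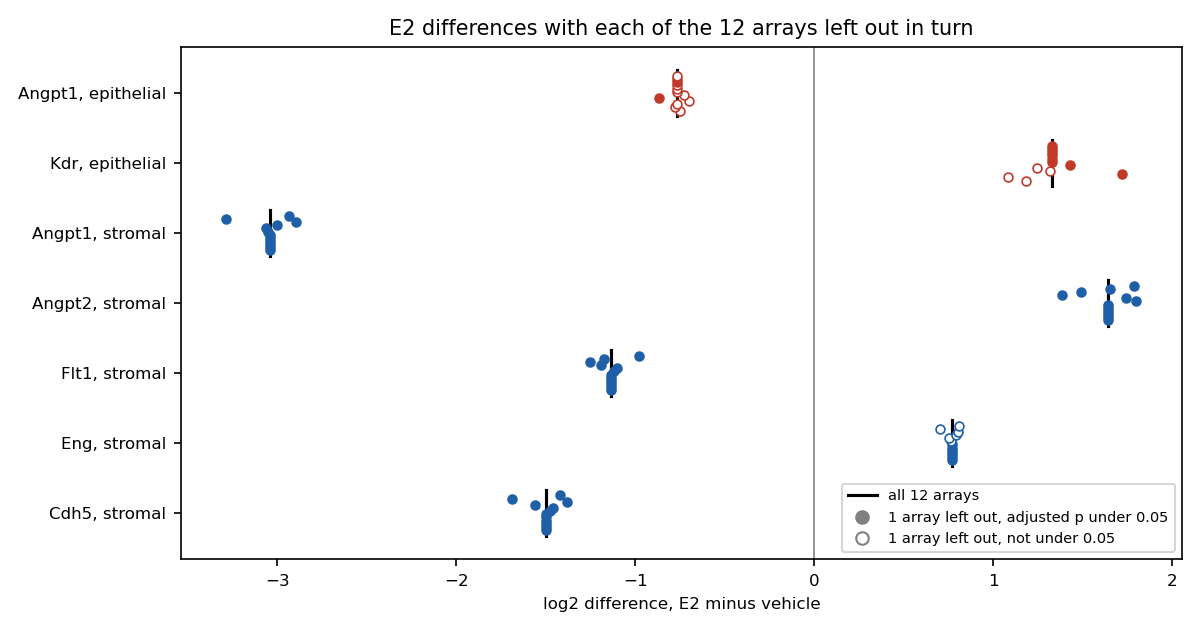
E2 minus vehicle difference in log2 signal of the 7 calls, computed with each of the 12 arrays left out in turn (points) and with all 12 arrays (black lines). Filled points passed an adjusted p of 0.05. The stromal calls of Angpt1, Angpt2, Flt1 and Cdh5 passed each time, while Angpt1 and Kdr in the epithelial layer and Eng in the stromal layer have open points.

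Between the layers, 5 of the 10 genes differed under vehicle, where 21.4% of all probe sets passed, and 4 under E2, where 13.6% passed. Kdr was higher in the epithelial layer under both treatments, as were 4.43% of all probe sets under E2 and 7.27% under vehicle. Flt1 and Eng were lower there under both treatments. Angpt2 was lower there under E2, and Angpt1 and Cdh5 under vehicle, where 9.18% of all probe sets under E2 and 14.1% under vehicle were lower. The groups did not overlap for 7 genes under E2 and 7 under vehicle, where that held for 38.9% and 36% of all probe sets. The median difference of the 10 genes was -0.19 under E2 and -0.22 under vehicle, against 0.02 for all probe sets under either.

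Kdr was 9.64-fold higher in the epithelial layer under E2 (3.27 ± 0.26, adjusted p = 1.75e-05) and 5.05-fold higher under vehicle (2.34 ± 0.26, adjusted p = 0.000125). Eng was lower in the epithelial layer under E2 (-2.74 ± 0.17, adjusted p = 3.64e-06), and it was 4.88-fold lower under vehicle (-2.29 ± 0.17, adjusted p = 8.9e-06). Kdr and Eng thus stood in opposite order across the layers. Flt1 was 1.59-fold lower in the epithelial layer under E2 (-0.67 ± 0.16, adjusted p = 0.0179) and 2.47-fold lower under vehicle (-1.31 ± 0.16, adjusted p = 0.000247). The call under E2 was lost without epithelial E2 replicate 1 or without stromal E2 replicate 1 or 3 (adjusted p of 0.0508 to 0.074). The 2 VEGF-A receptors were thus each higher in a different layer.

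Angpt2 was 2.05-fold lower in the epithelial layer under E2 (-1.04 ± 0.28, adjusted p = 0.0318), and under vehicle the layers differed by 0.01 ± 0.28 (adjusted p = 0.981). The call under E2 was lost without epithelial E2 replicate 3 or stromal E2 replicate 2 or 3 (adjusted p of 0.0598 to 0.128). Cdh5 was 2.70-fold lower in the epithelial layer under vehicle (-1.43 ± 0.26, adjusted p = 0.00236). Under E2 the Cdh5 difference of -0.75 ± 0.26 did not pass (adjusted p = 0.0811). With the replicate number as a block within treatment, the Cdh5 difference under E2 passed and the Angpt2 call under E2 was lost. Every epithelial vehicle array read lower than every stromal one for Vegfa, with a difference of -0.38 ± 0.15 (adjusted p = 0.0949), which passed without epithelial E2 replicate 3 (adjusted p = 0.014).

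**Figure D4:**
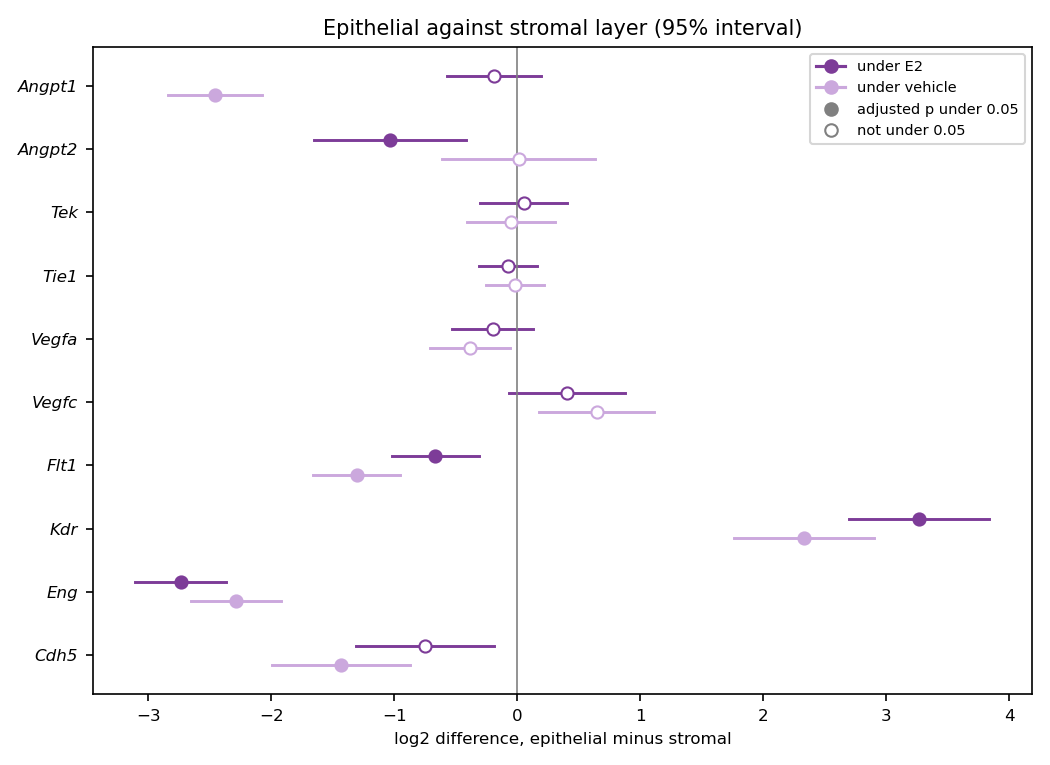
Difference in log2 signal, epithelial minus stromal layer, of the 10 genes under E2 and under vehicle, with 95% intervals. Filled points passed an adjusted p of 0.05. Kdr lies right of 0 under both treatments, and Eng, at -2.74 and -2.29, and Flt1 lie left of it under both.

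Among the 6 other VEGF ligands and receptors, all measured, 1 passed in the epithelial layer and 2 in the stromal layer under E2, all of them higher, where 1.77% and 1.52% of all probe sets rose. The median difference was -0.07 in the epithelial layer and 0.02 in the stromal layer. Vegfd, a ligand of lymphatic vessels like Vegfc, read 9.93, 9.62 and 10.04 in the epithelial layer under E2, against 7.50, 8.34 and 9.06 under vehicle. The stromal values were 8.41, 8.56 and 9.35 under E2, against 6.69, 6.68 and 7.10 under vehicle. Its groups were apart in both layers. It was 2.95-fold higher in the epithelial layer (1.56 ± 0.35, adjusted p = 0.0355) and 3.86-fold higher in the stromal layer (1.95 ± 0.35, adjusted p = 0.00919). The epithelial call was lost without any 1 of 10 of the 12 arrays (adjusted p of 0.0528 to 0.132) and held without epithelial vehicle replicate 3 or stromal E2 replicate 3.

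Vegfb, a ligand of Flt1, read 10.18, 10.16 and 10.31 in the stromal layer under E2, against 9.71, 9.77 and 9.81 under vehicle. The groups were apart, and the difference was 0.45 ± 0.09, or 1.37-fold (adjusted p = 0.0191), lost without any 1 of the 6 stromal arrays (adjusted p of 0.0563 to 0.0941). Pgf, the placental growth factor and another Flt1 ligand, differed by -1.32 ± 0.45 in the stromal layer (adjusted p = 0.176). Flt4, the receptor of Vegfc and Vegfd, differed by -1.16 ± 0.36 in the epithelial layer (adjusted p = 0.119). It was 3.83-fold higher in the epithelial than in the stromal layer under vehicle (1.94 ± 0.36, adjusted p = 0.00289). Of the 6 genes, Vegfd and Flt4 passed as higher in the epithelial layer under vehicle, and Vegfb, Nrp1 and Nrp2 as lower. Under E2, 0 passed as higher there and the same 3 as lower. Of all probe sets, 7.27% were higher and 14.1% lower under vehicle, and 4.43% and 9.18% under E2. Nrp1 and Nrp2, the neuropilin co-receptors, had no E2 call, and both were lower in the epithelial layer under E2 (differences of -0.87 and -0.95) and under vehicle (-0.85 and -0.80). The layer calls of Nrp1 were lost without any 1 of 9 arrays under E2 (adjusted p of 0.0576 to 0.154) and of 6 under vehicle (0.0508 to 0.108).

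Of the angiopoietin relatives and partners of the TIE receptors, 8 of 9 were measured by a single-symbol probe set, Angptl2 being the one that was not. Under E2, 0 of the 8 passed limma's test in either layer, with 0 in the epithelial layer and 2 in the stromal layer at an unadjusted p under 0.05, and with medians of 0.03 in the epithelial layer and 0.05 in the stromal layer. Angpt4, the third angiopoietin, was 4.69-fold lower in the epithelial layer than in the stromal layer under E2 (-2.23 ± 0.36, adjusted p = 0.002), and it was lower there under vehicle too (-1.68 ± 0.36, adjusted p = 0.006). Its stromal E2 difference was 0.92 ± 0.36 (adjusted p = 0.27). Ptprb, the endothelial phosphatase that restrains Tek, spanned 6.36 to 6.64 over the 12 arrays.

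**Figure D5:**
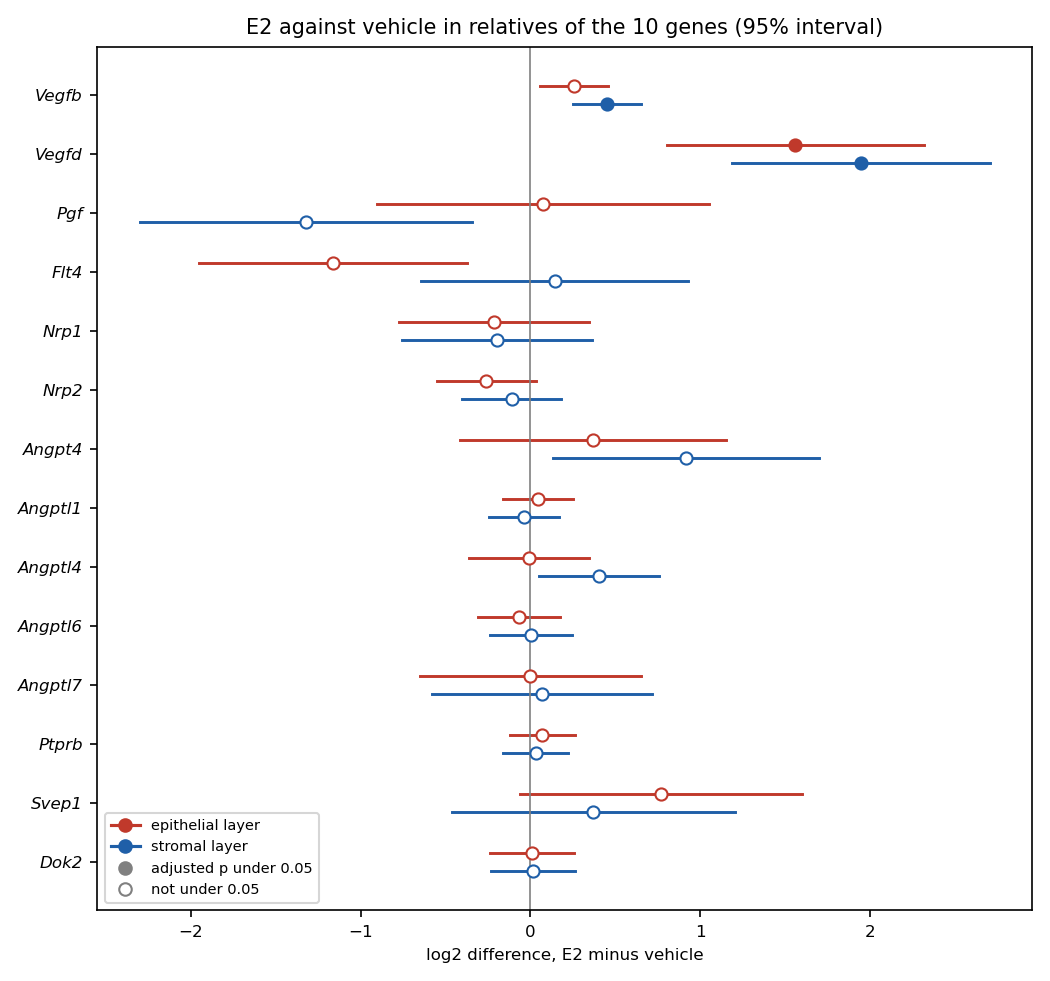
Difference in log2 signal, E2 minus vehicle, of the other VEGF ligands and receptors and of the angiopoietin relatives and TIE partners, in the epithelial and the stromal layer, with 95% intervals. Filled points passed an adjusted p of 0.05. Vegfd passed in both layers and Vegfb in the stromal layer.

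Of the 14 genes of the endoglin pathway, 1 passed in the epithelial layer and 2 in the stromal layer under E2, all of them lower, where 1.12% and 1.98% of all probe sets fell. Tgfbr1, a type I receptor of the family, read 9.17, 9.21 and 9.10 in the epithelial layer under E2, against 10.04, 10.28 and 9.97 under vehicle. The stromal values were 9.48, 9.62 and 9.57 under E2, against 10.42, 10.38 and 10.44 under vehicle. Its groups were apart in both layers, by -0.94 ± 0.09 in the epithelial layer (adjusted p = 0.00046) and by -0.86 ± 0.09 in the stromal layer (adjusted p = 0.000412). Smad5, a transducer of bone morphogenetic protein signals, differed by -0.59 ± 0.11 in the stromal layer (adjusted p = 0.0133), which was lost without stromal E2 replicate 1 or 2 (adjusted p of 0.0609 to 0.0756). The pathway's median was 0.07 in the epithelial layer and 0.06 in the stromal layer. Of the 5 partners of VE-cadherin, 0 passed limma's test in either layer under E2, while 2 in each layer had an unadjusted p under 0.05, with medians of -0.33 in the epithelial layer and -0.27 in the stromal layer.

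Of 11 Notch and ephrin genes of vessels, 2 passed in the epithelial layer under E2, both lower, where 1.12% of all probe sets fell, and 0 passed limma's test in the stromal layer, where 2 had an unadjusted p under 0.05. Dll4, the Notch ligand of sprouting endothelium, read 7.56, 7.71 and 8.30 in the epithelial layer under E2, against 9.29, 9.99 and 8.47 under vehicle. The groups were apart, by -1.39 ± 0.31 (adjusted p = 0.0345), but the call was lost without any 1 of 10 of the 12 arrays (adjusted p of 0.0522 to 0.147) and held without epithelial E2 replicate 3 or epithelial vehicle replicate 3. Ephb4, a receptor of venous endothelium, differed by -0.50 ± 0.10 there (adjusted p = 0.027), a call lost without epithelial E2 replicate 1 or 2, epithelial vehicle replicate 2 or stromal E2 replicate 1 or 2 (adjusted p of 0.053 to 0.119). The list's median was -0.18 in the epithelial layer and -0.005 in the stromal layer.

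Of 16 other angiogenic and antiangiogenic factors, 4 rose and 3 fell in the epithelial layer, where 1.77% and 1.12% of all probe sets did so. In the stromal layer 2 rose and 3 fell, against 1.52% and 1.98% of all probe sets. The list's median was 0.004 in the epithelial layer and -0.05 in the stromal layer. Fgf2, a growth factor for endothelium and fibroblasts, passed in both layers, by 1.17 ± 0.12 in the epithelial layer (adjusted p = 0.000533) and by 0.83 ± 0.12 in the stromal layer (adjusted p = 0.00236). In the epithelial layer Thbs2, an inhibitor of vessel growth, rose by 0.92 ± 0.10 (adjusted p = 0.00102), and Adm, the vessel peptide adrenomedullin, by 1.38 ± 0.19 (adjusted p = 0.00349). Hgf, a growth factor made by mesenchyme, read 5.98, 6.33 and 6.22 in the stromal layer under E2, against 9.25, 8.94 and 9.23 under vehicle. Its groups were apart, by -2.96 ± 0.30 (adjusted p = 0.000284). Ccbe1, a factor needed to process VEGF-C, read 8.90, 8.99 and 8.69 in the stromal layer under E2, against 11.58, 11.20 and 11.65 under vehicle, a difference of -2.62 ± 0.23 (adjusted p = 0.000132).

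Of 13 hypoxia-inducible factors and hypoxia genes, 6 passed in the epithelial layer under E2, all of them higher, where 1.77% of all probe sets rose. In the stromal layer 1 rose and 1 fell, against 1.52% and 1.98% of all probe sets. Of the 6 calls, those of Hif1a and Arnt, the factors themselves, and Bnip3, a mitophagy gene, were lost without any 1 of 10, 8 and 9 of the 12 arrays (adjusted p up to 0.142, 0.14 and 0.168). The median was 0.56 in the epithelial layer and -0.10 in the stromal layer, against 0.03 for all probe sets. Epithelial vehicle replicate 2 had the lowest value of the 12 arrays for Epas1, Egln1, Vhl, Slc2a1, Pgk1, Ldha, Bnip3, Ndrg1 and Ak4. Hif1a, Arnt, Egln3 and Car9 were lowest on other arrays. Pgk1 and Ak4, enzymes of energy metabolism, rose in the epithelial layer by 0.65 (adjusted p = 0.0107) and 1.00 (adjusted p = 0.011), and both lost the call without epithelial E2 replicate 1 or 2. Car9, a carbonic anhydrase often used as a hypoxia marker, read 10.06, 9.80 and 10.57 there under E2, against 7.82, 9.11 and 9.03 under vehicle (1.49 ± 0.31, adjusted p = 0.0275), and lost the call without epithelial E2 replicate 1 or 2 or stromal E2 replicate 2 (adjusted p up to 0.0917). In the stromal layer Epas1, a hypoxia-inducible factor of endothelium, rose by 1.17 ± 0.28 (adjusted p = 0.0395), a call lost without any 1 of 7 of the 12 arrays (adjusted p of 0.057 to 0.163). Egln3, a hydroxylase that marks these factors for decay, differed there by -1.49 ± 0.20 (adjusted p = 0.00172). Vegfa, a known target of these factors, had no call in either layer, as above.

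The layers were checked for endothelial cells with 20 endothelial markers other than the 10 genes, all measured. Under E2, 0 of the 20 passed limma's test in the epithelial layer, where 1 had an unadjusted p under 0.05. In the stromal layer 1 rose, Clec14a (1.07), where 1.52% of all probe sets did so. The mean of the 20 markers was 7.08 to 7.26 in the epithelial layer under E2 and 7.17 to 7.37 under vehicle. In the stromal layer it was 7.26 to 7.39 under E2 and 7.02 to 7.20 under vehicle, and 10 of the 20 lay below the array median on all 12 arrays. Among those below, Pecam1, a defining surface protein of endothelium, spanned 6.33 to 6.77, Cldn5, its tight-junction claudin, 6.85 to 7.31 and Erg, its transcription factor, 5.77 to 6.36. Esam, Ecscr and Egfl7, also genes of endothelium, were the 3 above the array median on all 12 arrays, with spans of 8.80 to 9.92, 8.54 to 9.46 and 7.90 to 8.27. Emcn, an endothelial surface mucin, spanned 6.18 to 9.39. Between the layers, 3 of the 20 were lower in the epithelial layer under E2 (Emcn, Clec14a and Ramp2), where 9.18% of all probe sets were lower. Under vehicle 4 were higher there (Esam, Sox7, Sox17 and Icam2) and 2 lower (Clec14a and Ramp2), against 7.27% and 14.1% of all probe sets. The markers thus differed between the layers in both directions, and their part in the layer differences of Kdr, Flt1, Eng and Cdh5 was not tested.

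Markers of other cell types moved with the layers and in part with E2. Among all probe sets, 4.43% were higher and 9.18% lower in the epithelial layer under E2, and 7.27% and 14.1% under vehicle. With E2 against vehicle, 1.77% of all probe sets rose and 1.12% fell in the epithelial layer. In the stromal layer 1.52% rose and 1.98% fell. Of 17 measured epithelial markers, 13 were higher in the epithelial layer under E2 and 15 under vehicle. Their mean was 9.15, 9.35 and 9.41 in the epithelial layer under E2, against 10.29, 10.86 and 9.26 under vehicle, so epithelial vehicle replicate 3 lay among the E2 arrays. It was 6.94 to 7.07 in the stromal layer under E2 and 6.62 to 6.84 under vehicle. With E2, 2 epithelial markers fell in the epithelial layer (Cldn4 and Wfdc2), where the median difference was -0.74 and 2 of the 17 lay above 0. In the stromal layer 1 rose (Krt7), and the median was 0.12. Of 14 stromal fibroblast markers, 3 were lower in the epithelial layer under E2 and 7 under vehicle. Under E2, 0 of them passed limma's test in either layer, with 3 in the epithelial layer and 4 in the stromal layer at an unadjusted p under 0.05. Their mean was 10.27, 10.26 and 10.16 in the epithelial layer under E2, against 9.72, 9.49 and 10.38 under vehicle, and 10.45 to 10.85 over the 6 stromal arrays. Of 14 leukocyte markers, 1 rose under E2 in the epithelial layer (Csf1r), and 0 passed limma's test in the stromal layer, where 3 had an unadjusted p under 0.05. Between the layers, 4 were lower and 1 higher in the epithelial layer under E2, and 9 were lower and 1 higher under vehicle, with a median of -1.25. Their mean was 9.16, 9.22 and 8.55 in the epithelial layer under E2, against 8.60, 8.31 and 8.68 under vehicle, with epithelial E2 replicate 3 the lowest of its group, as it was for Kdr, Vegfa, Eng, Cdh5 and Angpt2.

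Of 9 smooth muscle markers, 9 were lower in the epithelial layer under E2 and 8 under vehicle. Among all probe sets, 4.43% were higher and 9.18% lower there under E2, and 7.27% and 14.1% under vehicle. Under E2, 1 fell in the epithelial layer (Actg2), where 1.12% of all probe sets fell. In the stromal layer 2 rose (Cnn1 and Lmod1), where 1.52% of all probe sets rose and 1.98% fell. Of 6 mesothelial markers, 5 were higher in the epithelial layer under either treatment, and 1 fell there under E2 (Msln). Of 7 pericyte markers, 0 passed limma's test under E2 in the epithelial layer, where 1 had an unadjusted p under 0.05, and 1, Cspg4, fell in the stromal layer (-2.11). Their mean was 8.45 to 8.55 in the stromal layer under E2 and 8.52 to 8.99 under vehicle with all 7 markers. Without Cspg4, the mean of the other 6 was 8.31 to 8.45 under E2 and 8.12 to 8.58 under vehicle, so those groups overlapped, and the median difference of all 7 was -0.04. Pericyte markers lower in the epithelial layer were 2 under E2 (Pdgfrb and Rgs5) and 3 under vehicle (Pdgfrb, Cspg4 and Rgs5). Of 5 lymphatic markers 0 passed limma's test of E2 against vehicle in either layer, with 1 in the epithelial layer at an unadjusted p under 0.05. Between the layers 1, Flt4, was higher in the epithelial layer under vehicle, and 0 passed under E2. Of 4 red blood cell markers 1 was measured and did not pass. The part of these other cell types in the results on the 10 genes was not tested.

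The genes whose pattern was most like that of a member were taken as the 5 with the highest Pearson r over the 12 arrays. These points share 4 groups, so the r values describe the pattern and carry no test. Angpt1 was closest to Fjx1 (0.979), Rflnb (0.974), Irgm1 (0.972), Hgf (0.967) and Mmp1b (0.966). Kdr was closest to Zdbf2 (0.971), Dnajc6 (0.970), Eps8 (0.970), Rasgrf2 (0.967) and Prag1 (0.967). Eng was closest to Csrp1 (0.991), Rassf2 (0.988), Sh3bgrl (0.985), Slc6a6 (0.985) and Triap1 (0.984). Flt1 was closest to Fam126a (0.970) and Cdh5 to Ube2l6 (0.966), and Angpt2, at 0.926 with Lrtm2, had a looser best match. Among the 10 genes themselves, r was 0.93 between Angpt1 and Cdh5, 0.90 between Angpt1 and Flt1, 0.87 between Flt1 and Cdh5 and -0.82 between Kdr and Eng. After the group means were taken out, r for these pairs was 0.64, -0.18, -0.33 and 0.78 in the same order. Treated likewise, r was 0.90 between Vegfa and Kdr, 0.83 between Eng and Cdh5 and 0.81 between Angpt1 and Tek. Vegfa, Kdr, Eng and Cdh5 each had their lowest epithelial E2 value on replicate 3.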

How the data were processed

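RNA of each layer was hybridized to Affymetrix Mouse Gene 1.0 ST arrays, 12 in all and 3 per group. The deposited values are log2 signals made with RMA per the submitters' processing notes; the version and settings of RMA are not given in the sources used here. The 35556 probe sets were used as deposited, and no pair of arrays was identical. The number of arrays limits the precision.

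Symbols came from the platform annotation, which gave exactly 1 symbol to 21789 probe sets, several to 1621 and none to 12146, so that 23410 had a symbol. The test was limma's (version 3.58.1, R 4.3.3), two-sided, with lmFit and eBayes fitted to the 4 groups on 12 arrays. It had 8 residual degrees of freedom and 3.27 prior ones. Benjamini-Hochberg adjustment covered the 23410 probe sets within each of 5 comparisons, with a threshold of 0.05. The fit was tested on simulated data.

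Besides the 10 genes, Vegfb, Pgf, Flt4, Nrp1, Nrp2, Pecam1 and Ptprb were always named, and from each further list up to 3 genes with the smallest p among those that passed; other genes were named after their values were seen. The 7 pathway lists, the 9 marker lists and the 10 genes were chosen with earlier results of these data known. Promoters are RefSeq's (GRCm38.p6), and no gene coordinates are given for the array, whose build the sources used here do not give.

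Replicate numbers came from the sample titles. Residuals of same-numbered arrays correlated at 0.17, 0.14 and 0.13 between the vehicle layers, all above 0.1. They did so at -0.42, 0.27 and 0.27 between E2 and vehicle in the epithelial layer, at 0.20, -0.04 and 0.03 in the stromal layer, and at -0.31, 0.23 and -0.06 between the layers under E2. Layers of unlike treatment cannot share a co-culture. They gave 0.43, 0.06 and 0.02 for epithelial vehicle with stromal E2, and -0.02, 0.20 and 0.18 for epithelial E2 with stromal vehicle. These values therefore cannot decide which arrays are paired. The printed fit has no block. Where the block within treatment changes a layer call of a member, this is stated beside it. Alternatives varied the probe sets tested, a filter on low values, the scaling, the variance model, the threshold, the replicate block, the arrays fitted and each array left out.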

Additional observations from a re-analysis of the deposited data

Results flagged for a closer look

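For 5 genes among the 10 and the pathway lists, the E2 effect differed between the layers in the test of the difference itself (limma, adjusted over all 23410 probe sets), and each difference is the epithelial minus the stromal effect. For Angpt1 it was 2.27 ± 0.25 (adjusted p = 0.00333), with effects of -0.76 in the epithelial layer and -3.04 in the stromal layer. Whether a floor of the signal limited the epithelial effect was not tested.

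Hgf differed by 2.17 ± 0.42 (adjusted p = 0.0409), with effects of -0.79 in the epithelial layer and -2.96 in the stromal layer. It lost the call without any 1 of 9 arrays (adjusted p of 0.0664 to 0.123) and held without epithelial E2 replicate 3 or epithelial vehicle replicate 2 or 3. Under E2 Hgf averaged 6.22 in the epithelial and 6.17 in the stromal layer, below the array medians, and a floor was not tested here either. Ccbe1 differed by 1.66 ± 0.32 (adjusted p = 0.0414), with effects of -0.96 and -2.62 in the same order of layers; it lost the call without any 1 of 8 arrays (adjusted p of 0.0645 to 0.119) and held without epithelial E2 replicate 3, epithelial vehicle replicate 2 or 3, or stromal vehicle replicate 2.

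Egln3 differed by 1.84 ± 0.28 (adjusted p = 0.0135), with effects of 0.34 in the epithelial layer and -1.49 in the stromal layer. Adamts3, a protease that takes part in VEGF-C processing, differed by 1.62 ± 0.26 (adjusted p = 0.0146), with effects of 1.10 in the epithelial layer and -0.52 in the stromal layer; without stromal E2 replicate 2 its adjusted p was 0.0526.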

How the results depend on the processing

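The stromal E2 calls of Angpt1, Angpt2, Flt1 and Cdh5 held in each setting that tested them; the filter on low values removed Angpt1. In the epithelial layer the 2 E2 calls became 1 with all probe sets of the table, 1 with that filter, 1 with array 75th percentiles subtracted, 5 with array weights, 0 at a threshold of 0.01, 0 with the replicate block within layer and 0 with only the 6 arrays compared. Each array left out gave 0 to 2. With the replicate block as 1 term over all arrays the count was 2 in the epithelial and 4 in the stromal layer, where Eng lost its call (adjusted p = 0.0506), and within layer Eng had 0.12. The difference of E2 effects, with 1 call, gave 0 with the filter, which left Angpt1 untested, 4 with array weights (Angpt1, Flt1, Kdr and Cdh5) and 1 to 2 without 1 array. The 4 layer calls under E2 became 7 with array weights, 2 at 0.01 and 2 to 5 without 1 array. The replicate block within treatment lost Angpt2 there (adjusted p = 0.0619) and added Cdh5 (0.041). The 5 under vehicle stayed at 5 to 6 without 1 array. The shares of all probe sets moved as well. With array weights 20.1% passed for E2 in the epithelial layer, 19.2% for the difference of effects and 50.4% between the layers under E2. The printed fit had 2.9%, 0.91% and 13.6%. Without epithelial E2 replicate 3, 3.04% passed for the difference of effects. Between the layers under vehicle 26.9% passed without it, against 21.4% in the printed fit. In the epithelial layer 0.897% passed at a threshold of 0.01, 1.87% with the block within layer and 0.209% with only the 6 arrays compared. Why these counts moved was not tested. Of 1230 recomputed member differences, 1120 kept their direction and side of the threshold, 41 lost a call, 28 gained one and 41 changed sign, each of them a difference with no call. Of 2319 recomputed differences of the list genes that passed, 331 lost the call and 0 changed sign. Sign changes by setting were as follows. With array weights the epithelial E2 difference was -0.19 for Tek and -0.18 for Tie1, the stromal one -0.072 for Vegfc, and the difference of the effects -0.13 for Tek. Array weights also gave layer differences of -0.071 for Tek under E2, and of -0.10 for Angpt2, 0.059 for Tek and 0.085 for Tie1 under vehicle. Quantile normalization gave -0.0014 for Tie1 in the epithelial and -0.015 for Vegfc in the stromal layer, and layer differences of -0.085 for Tek under E2 and -0.023 for Angpt2 under vehicle. Array medians gave -0.0064 for Angpt2 between the layers under vehicle. Array 75th percentiles gave 0.023 for Tek in the stromal layer, and layer differences of 0.031 for Tie1 under E2 and of 0.11 for Tek and 0.15 for Tie1 under vehicle. Leaving out 1 array gave epithelial E2 differences of -0.0755 to 0.24 for Tek, -0.0949 to 0.0825 for Tie1 and -0.43 to 0.077 for Vegfc. It gave stromal ones of -0.18 to 0.046 for Tek, -0.17 to 0.0021 for Vegfa and -0.0959 to 0.0864 for Vegfc. It gave differences of the effects of -0.0442 to 0.27 for Tek, -0.16 to 0.018 for Tie1 and -0.44 to 0.0717 for Vegfc. It gave layer differences of -0.0255 to 0.0975 for Tek under E2, and of -0.14 to 0.19 for Angpt2, -0.22 to 0.0965 for Tek and -0.0902 to 0.0872 for Tie1 under vehicle. Signal over background was not given, so the low levels of Angpt1 under E2 and of Tek have no known distance to it.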

Other observations

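Epithelial vehicle replicate 2 had the highest signal of the 12 arrays for 3 of the 20 endothelial markers (Sox7, Sox17 and Icam2) and the lowest for 7 (Cldn5, Egfl7, Vwf, Clec14a, Nos3, Ramp2 and Tal1), so the markers had no common direction on it. Flt4 and Dll4 were highest there too, and all of these were singled out after their values were seen. Flt4 read 7.58, 7.95 and 7.72 in the epithelial layer under E2, against 8.90, 9.90 and 7.94 under vehicle. Sox17, a transcription factor of arterial endothelium, read 7.16, 7.25 and 7.47 under E2, against 7.78, 9.26 and 6.96 under vehicle. Its relative Sox7 read 7.29, 7.17 and 8.19 under E2, against 7.96, 9.20 and 7.29 under vehicle. Icam2, an adhesion molecule of endothelium, reached 7.98 on that array. Emcn, a marker of venous and capillary endothelium, stood at 8.89 on that array, against 6.18 to 6.85 in the epithelial layer under E2, but it was 9.15 to 9.25 in the stromal layer under E2. On the same array Pecam1 read 6.52 and Cdh5 9.35, the lowest Cdh5 value of its group. The epithelial markers had their highest mean, 10.86, on that array.

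Of the 13 hypoxia genes, 2 were higher (Egln3 and Car9) and 1 lower (Epas1) in the epithelial than in the stromal layer under E2, while under vehicle 1 was higher (Car9) and 7 were lower. Of all probe sets, 4.43% were higher and 9.18% lower under E2, and 7.27% and 14.1% under vehicle. The median difference of that list was 0.06 under E2 and -0.62 under vehicle. Of the 14 endoglin pathway genes, 2 were higher and 1 lower in the epithelial layer under E2, and 5 higher and 3 lower under vehicle, where 13.6% and 21.4% of all probe sets differed. Id1, a target gene of this pathway, was higher in the epithelial layer by 1.46 ± 0.20 under E2 and 1.41 ± 0.20 under vehicle, while Eng was lower there under both.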
